A study of Rattus norvegicus with 14 samples.

Results

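The serum of 8 euthyroid rat pups (with normal thyroid hormone supply, as labelled) was described here through every miRNA in the deposited count table, without regard to the drug group of the same study. These are the 8 libraries labelled Control, of 14 serum libraries in all, and they were chosen by that label alone. Each came from the serum of a different female Long Evans pup, with 1 pup taken per litter on postnatal day 8. The dams had drunk water with 0 ppm of propylthiouracil, the antithyroid drug given at 3 ppm to the dams of the other litters. The labels call the material cell-free RNA and describe no genetic alteration or surgery. As there was 1 library per litter, differences between litters, between pups and between library preparations cannot be told apart, and "spread between litters" below means all of them together.

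MicroRNAs are short RNAs that guide Argonaute proteins to messenger RNAs, mostly through their seed, bases 2 to 8 from the 5′ end. Each is cut from a hairpin precursor whose 5′ side gives the 5p arm and whose 3′ side gives the 3p arm, and usually only a single arm is kept in quantity. Serum holds miRNAs that cells released in vesicles, in protein complexes or on breaking open. The mixture therefore reflects several organs at once, and certain miRNAs are so restricted that they are used as tissue markers. Well-known markers are miR-206 for skeletal muscle, miR-451 for red cells, miR-122 for hepatocytes, miR-124 for neurons and miR-223 for myeloid white cells.

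The table listed 375 mature miRNAs. Counts over them ran from 452961 to 1935825 per library, with a median of 1055636. Values in CPM (counts scaled to a common library size with trimmed-mean factors) and shares of counts are used below. Errors are SD over the 8 libraries. In bulk serum, a lower share can come from fewer cells of a type releasing RNA or from less RNA per cell, and these cannot be told apart.

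The sequences that held most of the counts are shown first, because 5 seeds took 71.6% of all counts. They are mature sequences from RefSeq (rat assembly GRCr8), 5′ to 3′, with the seed in capitals. The table of sequences matched 343 of the 375 miRNAs, which held 98.2% of the counts, and these 343 carried 281 different seeds.
miR-206-3p: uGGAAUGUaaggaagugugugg
miR-1-3p: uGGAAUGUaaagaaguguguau
let-7c-5p: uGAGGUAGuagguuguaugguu
let-7b-5p: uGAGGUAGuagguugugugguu
let-7i-5p: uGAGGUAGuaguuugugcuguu
miR-16-5p: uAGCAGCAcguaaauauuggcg
miR-322-5p: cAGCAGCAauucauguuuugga
miR-199a-3p: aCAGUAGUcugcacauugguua
miR-133a-3p: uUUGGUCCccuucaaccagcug
miR-133b-3p: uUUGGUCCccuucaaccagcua

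The seed GGAAUGU, shared by the muscle miRNAs miR-206-3p and miR-1-3p, took 44.8% ± 2.18 of the counts (SD, n = 8), with a lowest library at 40.8% and a highest at 47.3%. The let-7 seed GAGGUAG, carried by 8 listed miRNAs, took 9.82% ± 1.82, from 6.48% to 11.9%. The seed AGCAGCA took 9.09% ± 1.16, nearly all of it through miR-16-5p, since the other 4 members (miR-322-5p, miR-15b-5p, miR-195-5p and miR-497-5p) took between 0.00659% and 0.0568% each. The seed CAGUAGU of miR-199a-3p took 5.31% ± 0.79 and the seed UUGGUCC of miR-133a-3p and miR-133b-3p took 2.62% ± 0.445. The last pair differ in the letter at the 3′ end, and let-7c-5p and let-7b-5p are also near-identical, so the authors' counting could divide reads between such members differently from their true levels.

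A 5′ uridine, the base that Argonaute proteins are known to prefer, was more common by counts than by names. It began 146 of the 343 sequences (42.6%), and those sequences held 81.8% ± 1.21 of the counts (SD, n = 8). Of this share, miR-206-3p made up 37.6 percentage points and the other U sequences 44.2, both as parts of all counts. The 44.2 is not a share of the counts left without miR-206-3p, so it cannot be set against the 42.6% of names. Sequences beginning with A held 10.5% ± 1.08, with C 4.21% ± 0.235 and with G 1.70% ± 0.143.

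Few miRNAs made up most of the serum profile, and they did so in every litter. In all 8 libraries 3 miRNAs held 50% of the counts. Between 37 and 47 held 90%, and between 158 and 177 held 99%. The effective number of miRNAs (the exponential of the Shannon entropy, the number of equally abundant miRNAs that would be as diverse) was 20.8 ± 1.69, from 18.8 in replicate 3 to 23.2 in replicate 7. Levels were strongly correlated between libraries on the log scale. Across the 375 miRNAs, Pearson's r of log2 CPM was between 0.960 and 0.990 over the 28 pairs, with a median of 0.976. This r is a description, since miRNAs are not replicates and their large range of levels raises it. Of the 201 miRNAs with a mean of at least 100 CPM, between 2 and 25 differed by more than 2-fold between the members of a pair.

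**Figure D1:**
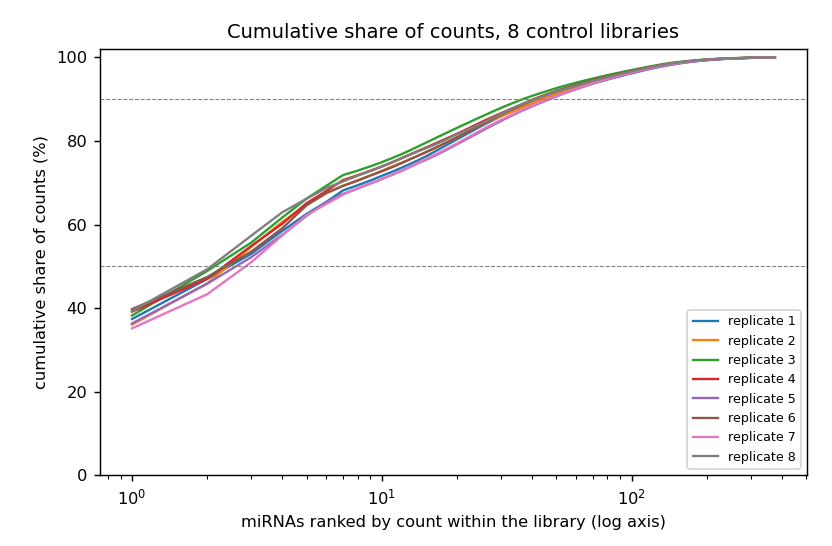
Cumulative share of counts (%) against miRNAs ranked by count within each library (log axis), with 1 line per control library and dashed lines at 50% and 90%. All 8 lines pass 50% at the third miRNA and 90% between the 37th and the 47th.

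The most abundant miRNA, miR-206-3p, which is made in skeletal muscle, had 335607 CPM in its lowest library, a median of 378757 and 425471 in its highest. It lay above miR-16-5p, a miRNA made in many cell types and plentiful in red cells, in 8 of 8 libraries, by 2.08 ± 0.19 on the log2 scale (adjusted p = 0.0365, exact two-sided sign-flip permutation test, Benjamini-Hochberg over 14 neighbouring pairs of the 15 most abundant miRNAs). The smallest unadjusted p that this test allows with 8 libraries is 0.00781. Pairs followed the order of mean CPM in these same libraries, which favours the direction given, and the p-values do not allow for it. Of the other 13 neighbouring pairs, 2 passed, each higher in 8 of 8 libraries: let-7c-5p above let-7b-5p by 1.02 ± 0.09, and miR-133a-3p, another muscle miRNA, above miR-143-3p, a smooth muscle and fibroblast miRNA, by 1.03 ± 0.36 (both adjusted p = 0.0365, same permutation test). The order of the remaining neighbours was not distinguishable from the spread between litters.

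Below miR-206-3p and miR-16-5p, which ran from 73254 to 118912 CPM, came miR-1-3p of heart and skeletal muscle (lowest 41851, median 77010, highest 94360 CPM). It was followed by miR-199a-3p of mesenchymal cells (39443, 54092 and 61935 CPM) and let-7c-5p (32425, 55121 and 67197 CPM). These 3 overlapped in range. The next in the order were let-7b-5p (15656 to 34304 CPM), miR-133a-3p (17641 to 30789) and miR-143-3p (9509 to 14544).

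The last 7 of the 15 had means between 8445 and 10537 CPM. From the imprinted Dlk1-Dio3 locus came miR-382-5p, miR-431 and miR-434-3p. The others were miR-378a-3p, which lies in an intron of the metabolic coactivator gene Ppargc1b, and the widely made miR-125b-5p, miR-191a-5p and miR-26a-5p. Of these 7, miR-125b-5p varied most between litters, from 5224 CPM in replicate 8 to 12631 CPM in replicate 6.

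To describe the profile by tissue, 200 of the 375 miRNAs were placed in 13 lists that share no member, from textbook knowledge of where each is made. A list holds miRNAs typical of a tissue, and few of them are made there alone, so a share is not a measure of how much RNA that tissue released. The 175 miRNAs in no list held 11.2% ± 0.754 of the counts (SD, n = 8).

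Striated muscle miRNAs held 47.5% ± 2.38 of the counts with 8 listed members, from 42.9% in replicate 5 to 50.1% in replicates 4 and 8. The defining muscle markers miR-206-3p, miR-1-3p and miR-133a-3p were all among the 15 most abundant miRNAs. The slow-fibre and heart marker miR-499-5p, in contrast, had 111 ± 25.2 CPM. The heart-restricted miR-208 was not analysed here. Widely made miRNAs that red cells are rich in, led by miR-16-5p, miR-25-3p and miR-92a-3p, held 10.4% ± 1.32, and the let-7 family, made in most differentiated tissues, held 9.86% ± 1.82. Connective tissue and smooth muscle miRNAs held 7.63% ± 1.09, most of it from miR-199a-3p. The cartilage miRNA miR-140-3p was the third member of that list at 4169 ± 928 CPM, after miR-143-3p.

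The 69 listed miRNAs of the Dlk1-Dio3 locus, a maternally expressed imprinted cluster that is active in fetal and early postnatal tissue, held 6.57% ± 0.425, from 5.98% to 7.17%. RefSeq places 67 of them, all on rat chromosome 6. Another 4 miRNAs of the table lie between these by position and held 0.0755% together. The X-linked cluster of miR-322, miR-503, miR-351, miR-542 and miR-450a, expressed in growing muscle and connective tissue, had all of its 10 listed miRNAs on chromosome X and held 0.788% ± 0.0646. Its leading members were miR-351-5p (1960 ± 512 CPM), miR-542-3p (1570 ± 286) and miR-542-5p (1312 ± 111).

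Smaller shares belonged to the blood vessel, blood cell and organ lists. Endothelium and platelet miRNAs held 2.11% ± 0.253, with miR-21-5p at 6269 ± 579 CPM, the endothelial miR-126a-3p at 4402 ± 845 and miR-23a-3p at 3458 ± 309. White blood cell miRNAs held 1.22% ± 0.131. Their markers were all present: miR-146a-5p, a brake on inflammatory signalling, had 3023 ± 295 CPM, the pan-leukocyte miR-142-5p 2646 ± 683, the myeloid miR-223-3p 1854 ± 263 and the lymphocyte miR-150-5p 817 ± 90.3 (SD, n = 8).

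Surface epithelium miRNAs held 0.953% ± 0.169. The skin miRNAs miR-203a-3p (4246 ± 1102 CPM) and miR-205 (2203 ± 479) led that list, with the sensory epithelium miRNA miR-183-5p at 582 ± 164. Neuron and glia miRNAs held 0.904% ± 0.428 over 25 listed members. Red cell precursor miRNAs (miR-451 and miR-144, both arms) held 0.462% ± 0.134, and miR-451-5p alone had 3937 ± 1087 CPM. miR-486, another miRNA of that lineage, was not analysed here.

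Liver miRNAs held 0.435% ± 0.145. The hepatocyte marker miR-122-5p had 1296 ± 639 CPM, near the 1423 ± 502 and 1384 ± 483 of miR-483-3p and miR-483-5p, which come from an intron of the fetal growth factor gene Igf2. The endocrine list was the smallest at 0.0485% ± 0.0101. It held miR-7a-5p (367 ± 86.0 CPM), miR-375-3p, the islet marker (81.0 ± 35.7), and miR-7b (24.4 ± 16.8).

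**Figure D2:**
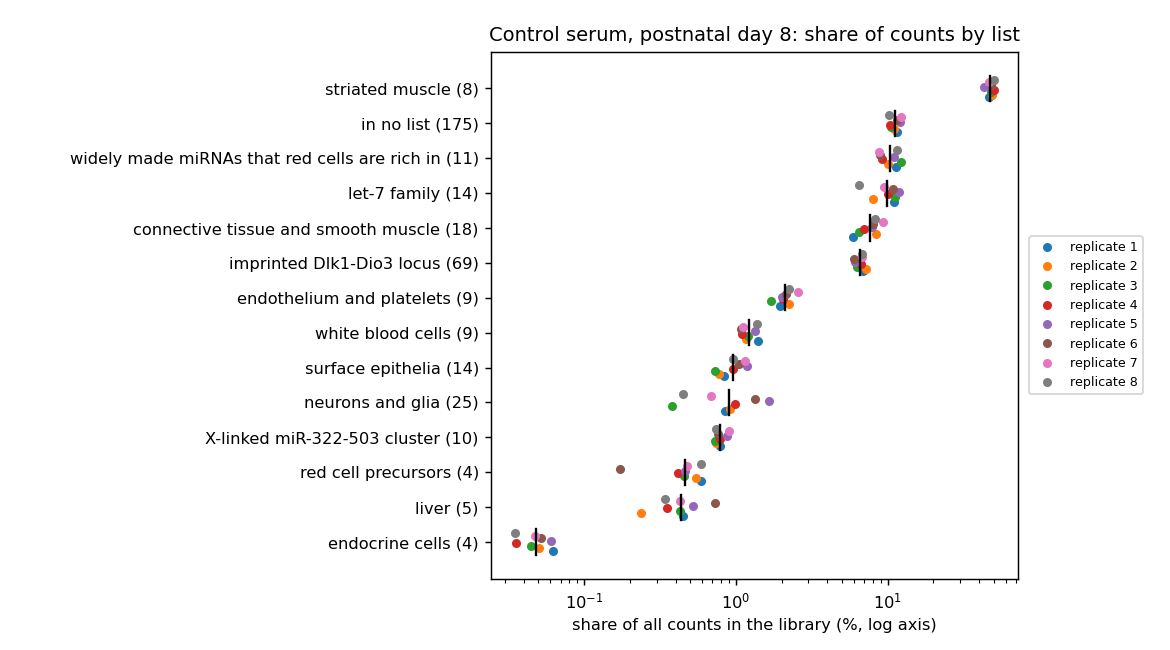
Share of all counts in the library (%, log axis) for each list, with its number of miRNAs in brackets. Each point is 1 of the 8 control libraries and each bar is the mean. Striated muscle lies between 42.9% and 50.1%, and the widest scatter is that of neurons and glia, from 0.380% to 1.65%.

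Neighbours in the order of the lists were compared by the log2 ratio of their shares within a library, over 12 pairs (exact two-sided sign-flip permutation test, Benjamini-Hochberg adjusted). The order was that of the mean shares in these same libraries. This favours a difference in the direction given, and the p-values do not allow for it. Muscle lay above the widely made red cell list by 2.20 ± 0.21, in 8 of 8 libraries (adjusted p = 0.0188, exact permutation test). That order rested on miR-206-3p: with it taken out of the counts, muscle held 15.8% and the widely made red cell list 16.6%. The Dlk1-Dio3 locus lay above endothelium by 1.65 ± 0.16, endothelium above white cells by 0.79 ± 0.26, the X-linked cluster above red cell precursors by 0.85 ± 0.58 and liver above the endocrine list by 3.13 ± 0.45. Each of these 4 was higher in 8 of 8 libraries, with an adjusted p of 0.0188 in the same exact test.

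White cells lay above epithelia by 0.37 ± 0.31 in 7 of 8 libraries (adjusted p = 0.0313, exact permutation test). That call was lost when any of replicates 1, 2, 3, 4, 5, 6 or 8 was left out, with an adjusted p between 0.0536 and 0.0625. Leaving out a library also raises the smallest p that this test allows. The log2 ratio itself ran from 0.31 to 0.43 over all such omissions.

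The other 6 neighbouring pairs did not pass. The widely made red cell list and let-7 differed by 0.09 ± 0.35 (adjusted p = 0.713, exact permutation test), let-7 and connective tissue by 0.36 ± 0.44 (0.0820) and connective tissue and the Dlk1-Dio3 locus by 0.21 ± 0.23 (0.0670). Epithelia and neurons differed by 0.21 ± 0.62 (0.479), neurons and the X-linked cluster by 0.05 ± 0.68 (0.836), and red cell precursors and liver by 0.07 ± 0.97 (0.836). For these pairs the spread between litters was as large as, or larger than, the mean difference.

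Counting error was small beside these spreads. The exact binomial 95% interval of a list's share in a library reached at most 12.0% of the share to either side, in the endocrine list, and at most 5.71% of the share in any other list. The largest and the smallest share differed between libraries by 4.33-fold for neurons and glia, 3.45-fold for red cell precursors and 3.06-fold for liver, but by 1.17-fold for muscle and 1.20-fold for the Dlk1-Dio3 locus.

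The spread of single miRNAs depended on their level. The median coefficient of variation (CV) between litters was 23.8% over all 375 miRNAs, where counting error alone gives a median of 9.29%. Among the 174 miRNAs under 100 CPM the median CV was 32.2%, with a median counting CV of 21.8%. It was 20.4% for the 128 miRNAs from 100 to 1000 CPM, 17.2% for the 62 from 1000 to 10000 CPM and 13.5% for the 11 above. The 201 miRNAs with at least 100 CPM held 99.4% of the counts. Their median CV was 19.5% against a counting CV of 4.35%, and in 181 of the 201 the CV was more than 2 times the counting CV. edgeR's common biological CV, the spread beyond counting error, was 25.9%.

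**Figure D3:**
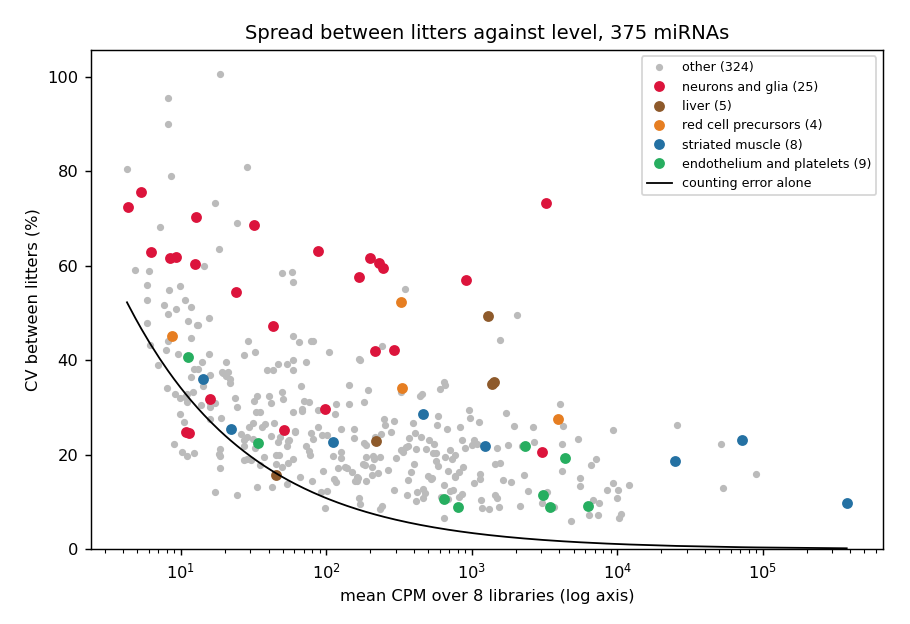
Coefficient of variation of CPM between litters (%) against mean CPM over the 8 control libraries (log axis), with 1 point per miRNA (375) and a line for the CV that counting error alone gives. Points of the neuron and glia list above 100 CPM lie between 20.5% and 73.4%, and those of the endothelium and platelet list between 8.87% and 21.9%.

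The 6 miRNAs with the highest CV among those of at least 100 CPM all belonged to the neuron and glia list. They were miR-9a-5p (73.4%), a miRNA of neural progenitors and neurons, miR-219a-2-3p (61.6%) and miR-219a-5p (57.6%) of maturing oligodendrocytes, the neuronal miR-124-3p (60.6%) and miR-137-3p (59.5%), and miR-9a-3p (57.0%). The sequences of 5 of them, and of miR-128-3p, a neuronal miRNA that varied less, are given with the seed in capitals.
miR-9a-5p: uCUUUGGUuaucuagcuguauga
miR-9a-3p: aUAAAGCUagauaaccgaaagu
miR-137-3p: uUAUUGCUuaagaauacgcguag
miR-219a-2-3p: aGAAUUGUggcuggacaucugu
miR-219a-5p: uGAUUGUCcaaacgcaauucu
miR-128-3p: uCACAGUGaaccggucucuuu

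These 6 sequences carry 6 different seeds. miR-9a-5p had 2846, 2487, 645, 4355, 7040, 5817, 1988 and 503.3 CPM in replicates 1 to 8. Its highest library was replicate 5 and its lowest replicate 8, a 14.0-fold range. miR-124-3p ran from 26.8 CPM in replicate 3 to 385 CPM in replicate 2, with 41.2 CPM in replicate 8 and 367.5 CPM in replicate 5. miR-137-3p ran from 41.8 CPM in replicate 3 to 476 in replicate 5, miR-219a-2-3p from 65.3 in replicate 3 to 392 in replicate 5, and miR-219a-5p from 69.6 in replicate 3 to 333 in replicate 5. miR-128-3p, by contrast, stayed between 2294 and 4019 CPM, a CV of 20.5%.

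The whole neuron and glia list was high and low in the same libraries as its leading members. Its share was 1.65% in replicate 5 and 1.34% in replicate 6, and 0.380% in replicate 3 and 0.448% in replicate 8. The other 4 libraries lay between 0.682% and 0.985%. Of its 25 members, 23 were above their own median in replicate 5, 21 in replicate 6 and 19 in replicate 2. In replicates 1, 4, 7, 8 and 3 these counts were 14, 10, 7, 4 and 2. Over all 375 miRNAs, the counts in the same order of replicates were 187, 188, 192, 181, 200, 192, 186 and 174. Between 11.2% and 46.2% of the list's counts came from miR-9a-5p, and with both arms of miR-9a taken out the list's share still ran from 0.300% to 0.710%.

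All 9 members of at least 100 CPM had a CV above the median of the 201 miRNAs, and their median CV was 57.6%. Over the 36 pairs of these 9, Pearson's r of log2 CPM across the 8 libraries was positive in each pair, with a median of 0.68. Over the 20100 pairs of all 201 miRNAs the median was 0.00 and 50.1% were positive. The arms miR-9a-5p and miR-9a-3p had an r of 0.97, miR-9a-5p and miR-124-3p 0.91, and miR-9a-5p and miR-128-3p 0.85. These are descriptions over 8 libraries that share their totals and scaling. The total counts over the listed miRNAs were 452961 in replicate 5, 696791 in replicate 6, 1039982 in replicate 3 and 1337386 in replicate 8, and their part in this pattern was not tested beyond the relation given below.

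The first principal component of log2 CPM over the 201 miRNAs, which held 41.6% of the variance, set the same libraries farthest apart. Its scores were 5.06 in replicate 5 and 4.25 in replicate 6, and -3.58 in replicate 3 and -4.85 in replicate 8. miR-9a-5p, miR-124-3p and miR-9a-3p had the largest loadings on it. Values were not scaled per miRNA, so the most variable miRNAs weigh most and the component is no separate support. The second component (24.4% of the variance) had its highest loadings on miR-124-3p (0.308) and miR-137-3p (0.199). It set replicates 2 (4.84) and 3 (-4.56) farthest apart.

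**Figure D4:**
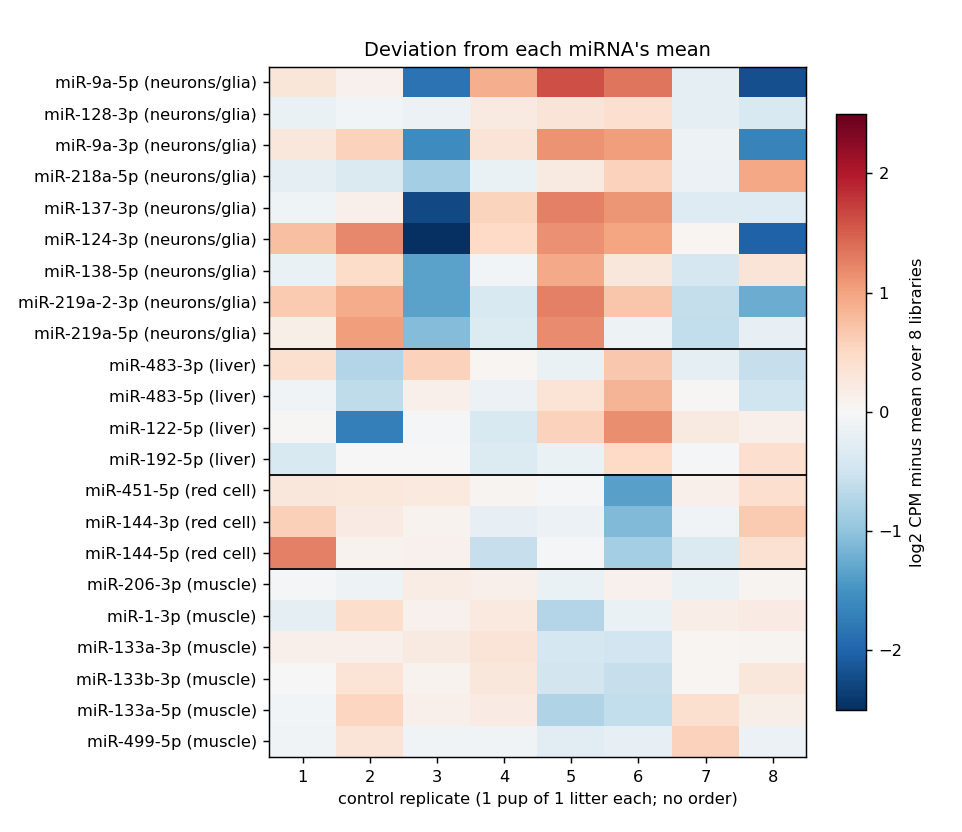
Deviation of log2 CPM from each miRNA's mean over the 8 control libraries (colour scale, log2 units), for the neuron and glia, liver, red cell and muscle miRNAs of at least 100 CPM. Replicates 5 and 6 are above the mean for 9 and 8 of the 9 neuron and glia miRNAs. Replicate 6 is the lowest library for all 3 red cell miRNAs and the highest for all 4 liver miRNAs. Of all 201 miRNAs of at least 100 CPM, replicate 6 is the lowest library for 41 and the highest for 22.

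Red cell precursor miRNAs set replicate 6 apart. These small RNAs come from a pair of neighbouring hairpins that are switched on as red cells mature. miR-451-5p had 1447 CPM in replicate 6 and between 3663 and 4976 CPM in the other 7 libraries, with a median of 4221 CPM over all 8. miR-144-3p had 144 CPM there, against 271 to 492 CPM elsewhere. miR-451-5p over miR-23a-3p, a measure of red cell breakage in serum, was on the log2 scale -1.23 in replicate 6 and between 0.01 and 0.58 in the others. The median r among miR-451-5p, miR-144-3p and miR-144-5p was 0.85 over 3 pairs, and 0.92 between miR-451-5p and miR-144-3p.

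Liver miRNAs were highest in that same library. miR-122-5p had 2550 CPM in replicate 6, a median of 1211 CPM, and 351 CPM in replicate 2, a 7.26-fold range with a CV of 49.2%. All 4 liver members of at least 100 CPM were highest in replicate 6, and 3 of the 4 were lowest in replicate 2. Of all 201 miRNAs of that level, 22 were highest in replicate 6 and 36 were lowest in replicate 2. The 4 liver members include both arms of the precursor miR-483, so they are not 4 separate genes. miR-483-3p (0.141%) and miR-483-5p (0.138%) each held more of the list's mean share of 0.435% than miR-122-5p (0.130%). The median r over their 6 pairs was 0.47, and 0.21 without replicate 6.

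Muscle miRNAs varied in a more restricted range, and not all together. miR-206-3p had a CV of 9.71%, while miR-1-3p had 23.1% and miR-133a-3p 18.7%. miR-1-3p and miR-133a-3p, which are transcribed from the same loci, had an r of 0.71, but miR-206-3p had an r of 0.27 with miR-1-3p and 0.25 with miR-133a-3p. Replicate 5 was the lowest library for 4 of the 6 muscle miRNAs of at least 100 CPM, and replicate 6 for the other 2. These libraries were also the lowest for many of all 201 miRNAs of that level, 38 in replicate 5 and 41 in replicate 6.

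The let-7 family was lowest in replicate 8, where 6 of its 9 members of at least 100 CPM had their lowest value. Of all 201 miRNAs of that level, 22 were lowest there. let-7c-5p and let-7b-5p kept close to a fixed ratio in all libraries. let-7i-5p, with 6816 to 8978 CPM, had a CV of 9.74%, lower than the 22.2% of let-7c-5p and the 26.3% of let-7b-5p.

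The 6 miRNAs with the lowest CV of those at 100 CPM or more were miR-30e-5p (5.89%), miR-146b-5p (6.51%), miR-378a-3p (6.65%), miR-30a-5p (7.23%), miR-30d-5p (7.23%) and miR-431 (7.50%). miR-30e-5p had 4570 CPM in its lowest library, a median of 4631 and 5378 in its highest. Of the 6, 3 belong to the miR-30 family, which is made in many tissues and shares the seed shown in capitals; 2 of the sequences are given.
miR-30a-5p: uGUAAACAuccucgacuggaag
miR-30e-5p: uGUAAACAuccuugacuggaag

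The capitals are alike in both and the sequences are near-identical, so assignment of reads between them may not be exact. The whole endothelium and platelet list was also steady, with a median CV of 10.7% over 7 members and 1 of the 7 above the median of all. Of the 41 Dlk1-Dio3 miRNAs of at least 100 CPM, 18 lay above that median, and their own median CV was 18.1%. Their median r was 0.43 over 820 pairs, of which 72.2% were positive, and 0.25 without replicate 5. The X-linked cluster, with 9 members of at least 100 CPM, had a median r of 0.07.

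The shares of the 13 lists were also set against the total counts over the listed miRNAs, the measure of depth that the table gives (log2 share against log2 total, 8 libraries, 13 relations). The liver share fell with the total in rank order (Spearman's rho = -0.93, exact permutation p = 0.00223, adjusted p = 0.0290), with a Pearson's r of -0.80 (exact permutation p = 0.0159, adjusted p = 0.104). Without replicates 2 and 5, which are farthest from the median total, r was -0.70. This relation is that of the whole list, in which miR-483-3p (0.141% of counts) and miR-483-5p (0.138%) each held more than miR-122-5p (0.130%). The let-7 share had a rho of -0.88 (exact permutation p = 0.00724, adjusted p = 0.0471) and an r of -0.75 (p = 0.0295, adjusted p = 0.128), which was -0.65 without the same libraries. Muscle had an r of 0.79 (p = 0.0160, adjusted p = 0.104) and a rho of 0.79 (p = 0.0279, adjusted p = 0.121, both exact permutation tests), with an r of 0.66 without those libraries. No Pearson relation passed after adjustment.

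The neuron and glia share had an r of -0.52 with the total (exact permutation p = 0.189, adjusted p = 0.409), a rho of -0.38 (p = 0.360, adjusted p = 0.506), and an r of -0.55 without replicates 2 and 5. The total moved with the liver and let-7 shares, and its part in their spread was not tested further. The Dlk1-Dio3 share had an r of 0.67 (exact permutation p = 0.0722, adjusted p = 0.188) and a rho of 0.57 (p = 0.151, adjusted p = 0.318), with an r of 0.24 without the same libraries. The endocrine share, the smallest, had an r of -0.67 (exact permutation p = 0.0705, adjusted p = 0.188) and a rho of -0.71 (p = 0.0576, adjusted p = 0.187), with an r of -0.93 without the same libraries. The lists not named here had an adjusted p of 0.299 or more by either measure.

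Set against the red cell ratio, none of the other 12 lists passed after adjustment. The closest were white cells, with a rho of 0.90 (exact permutation p = 0.00456, adjusted p = 0.0548) and an r of 0.63 (p = 0.0301, adjusted p = 0.181), and the widely made red cell list, with a rho of 0.86 (exact permutation p = 0.0107, adjusted p = 0.0643) and an r of 0.68 (p = 0.0151, adjusted p = 0.181). Without replicates 1 and 6, which are farthest from the median ratio, r was 0.66 and 0.83.

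The table named 254 precursors by base name. Both arms were listed for 118 of them, only the 5p arm for 53 and only the 3p arm for 60, and 23 had names without an arm. The 118 held 71.5% of the counts. Over all miRNAs, 3p arms held 65.0% ± 2.33 of the counts with 191 miRNAs and 5p arms held 34.8% ± 2.34 with 179 (SD, n = 8). With miR-206-3p set aside, the order was the reverse, and 5p arms held 55.8% of the remaining counts and 3p arms 43.9%.

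A dominant arm was called for most precursors. In edgeR's quasi-likelihood test of the arms within each library, with Benjamini-Hochberg adjustment over the 118 at 0.05, the 5p arm was higher in 59 (50%) and the 3p arm in 49 (41.5%). Counting only those with the same dominant arm in 8 of 8 libraries, 54 were called 5p (45.8%) and 45 were called 3p (38.1%), together 83.9% of the 118. Under the same rule of 8 of 8 libraries, the exact sign-flip permutation test, limma and DESeq2 called the same 54 and 45. For the sign-flip test this was fixed by the rule, because arms in the same order in every library always give its smallest p. Its calls are therefore no separate support. Every precursor with the same arm higher in 8 of 8 libraries also passed edgeR's test, so the rule alone sets the 54 and 45. Under that rule limma and DESeq2 could only have called fewer, and they used the same counts. Where both arms had a mean of at least 50 counts, which held for 41 precursors, 17 were called 5p and 11 were called 3p.

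Arm ratios were large for most precursors. The arms differed by more than 10-fold in 62 precursors and by more than 100-fold in 16, and lay within 2-fold in 28. The median absolute log2 ratio was 3.46, and 18 precursors changed their more abundant arm between libraries. Of the lists, let-7 had 5 of 5 precursors called 5p and muscle 3 of 3 called 3p. The Dlk1-Dio3 locus had 16 called 3p, 6 called 5p and 4 called neither among 26. Over all 118 precursors, 45.8% were called 5p and 38.1% were called 3p. The let-7 precursors are of a single family, and the muscle precursors include the related miR-133a and miR-133b, so these are not separate cases.

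**Figure D5:**
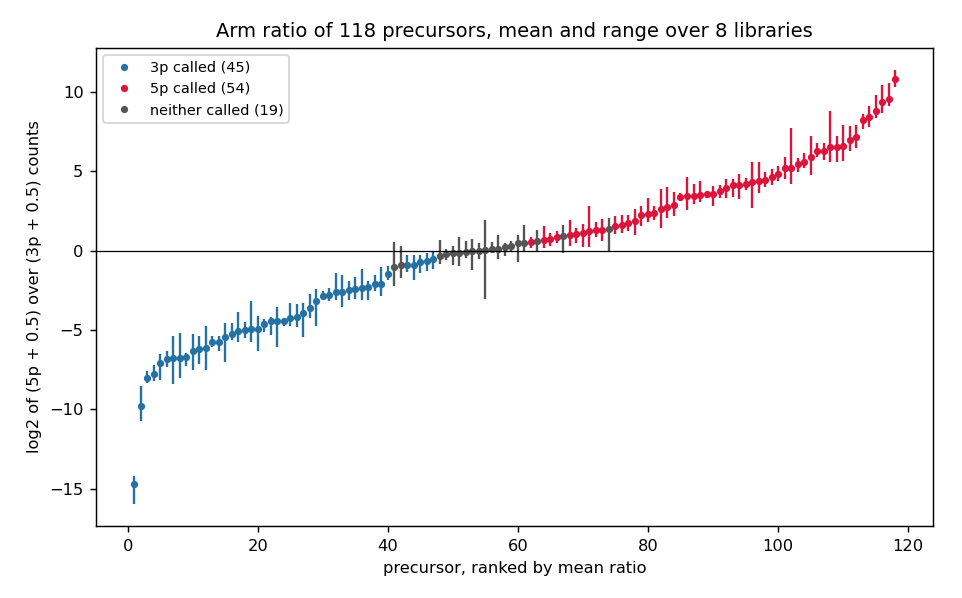
Log2 ratio of 5p to 3p counts (0.5 added to each) for the 118 precursors with both arms listed, ranked by mean. Points are means and vertical lines the range over the 8 control libraries, coloured by the called arm (54 are 5p, 45 are 3p and 19 neither). The lowest point is miR-206 at -14.73 and the highest is let-7c at 10.83.

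The most uneven precursor was miR-206, and 3 hairpins are shown to set it beside a balanced and a 5p-dominant one. They are precursor sequences from RefSeq (GRCr8), with the annotated mature arms in capitals. miR-206 lies at chr9:30590697-30590780 (plus strand), miR-144 at chr10:63459397-63459479 (plus strand) and miR-451 at chr10:63459569-63459640 (plus strand), each a noncoding precursor gene.
miR-206: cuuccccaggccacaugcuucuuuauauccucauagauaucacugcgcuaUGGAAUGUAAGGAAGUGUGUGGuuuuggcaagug
miR-144: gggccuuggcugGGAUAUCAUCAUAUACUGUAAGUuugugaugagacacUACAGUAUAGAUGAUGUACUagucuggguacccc
miR-451: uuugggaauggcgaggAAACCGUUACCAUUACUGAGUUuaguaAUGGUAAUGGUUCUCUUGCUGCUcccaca

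For miR-206 the 5p arm had between 2 and 35 counts per library and the 3p arm between 164377 and 697450, a log2 ratio of -14.62 ± 0.18 (SE; adjusted p = 4.9e-49, edgeR's quasi-likelihood test). Next among 3p-dominant precursors came miR-92a (-9.73 ± 0.19), miR-143 (-8.05 ± 0.15), miR-25 (-7.80 ± 0.15), miR-152 (-7.06 ± 0.16) and miR-223 (-6.85 ± 0.16). Each had its 3p arm higher in 8 of 8 libraries. The minor arms of miR-92a had between 2 and 13 counts per library, so those ratios rest on few counts.

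The most 5p-dominant precursor was let-7c, with a log2 ratio of 10.82 ± 0.16 (SE). It was followed by let-7i (9.58 ± 0.17), miR-30d (9.18 ± 0.18), miR-451 (8.83 ± 0.18), let-7a (8.35 ± 0.16) and miR-191a (8.20 ± 0.15), all with 5p higher in 8 of 8 libraries by edgeR's test. For let-7c and let-7a, 3p arms were summed over the genomic copies that are listed. Of these, let-7a-1-3p and let-7c-2-3p have the same sequence. Both ratios therefore depend in part on how the authors' counting divided reads between them. miR-451 is unusual in being cut by Argonaute 2 rather than Dicer, from a hairpin so short that the mature sequence runs into the loop. Its 3p arm had between 1 and 22 counts per library.

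At the other end, the 6 precursors nearest to equal arms, among those of at least 100 CPM over both arms, were miR-483, miR-144, miR-17, miR-423, miR-219a and miR-337. The 5p arm made up 49.5% ± 5.98 of the counts of miR-483 (from 41.3% to 58.4%), 48.8% ± 5.93 of miR-144 (from 42.3% to 60.2%), 51.4% ± 3.58 of miR-17 and 51.8% ± 8.76 of miR-423. It made up 47.3% ± 9.17 of miR-219a, whose arms were summed over genomic copies, and 47.2% ± 6.45 of miR-337 (SD, n = 8). The arm ratio of none of these 6 passed edgeR's quasi-likelihood test (adjusted p from 0.24 for miR-337 to 0.80 for miR-483). The miR-144 and miR-451 hairpins lie next to each other and are made from a shared transcript, yet their arms were balanced in the former and over 100-fold apart in the latter.

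The arm that dominated began with U more often than its partner. In the 76 precursors with both arm sequences, a called arm and arm names without a copy number (which may still stand for several copies, as for miR-9a), the dominant arm began with U in 35 and the other arm in 15. Where U began only a single arm, which was so for 30 precursors, that arm was the dominant in 25. The other bases were more common on the other arm, with 20 dominant against 27 other arms for A, 16 against 22 for C and 5 against 12 for G. These are counts over precursors that share families, given as a description.

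Arm ratios did not vary less between litters than the arms themselves did. In the 41 precursors with a mean of at least 50 counts on both arms, the median SD of the log2 arm ratio was 0.35, where counting error gives 0.09. The median SD of log2 CPM was 0.31 for the 5p arm and 0.32 for the 3p arm. The arms of a precursor had a median r of 0.46 across the 8 libraries, positive in 34 of 41. The steadiest ratio was that of miR-30a, with an SD of 0.11, and the most variable that of miR-18a, with an SD of 0.62.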

How the data were processed

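Serum small RNA was isolated with a Qiagen serum and plasma kit and made into libraries with the QIAseq miRNA kit using 22 cycles of PCR, per the labels' protocols. The authors deposited raw whole-number counts per mature miRNA and library. The submitters' processing notes name edgeR, with no version. Which aligner, miRNA annotation and build were used, how low counts were filtered, and whether molecules or reads were counted was not given in the sources used here. Amplification adds to the spread if reads were counted, and intervals cover counting error only. Totals are sums over the listed miRNAs and stand in for library depth, which may differ. A count of 3 equalled 1.48 to 6.13 CPM. How well each sequence is taken up by the kit was not tested, so levels of different miRNAs are compared as counted.

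Each of the 8 Control columns carries an identifier that its sample title also holds. No pair of libraries was near sampling noise (chi-square per degree of freedom of at least 24.0), so each counted as 1 replicate. The labels name 1 pup per litter, so replicates are separate animals. Counts were scaled with TMM factors (0.898 to 1.08) in edgeR 4.0.16 under R 4.3.3. Shares needed no scaling. Arms were tested on counts, with library as a term, by edgeR's quasi-likelihood test, with the Benjamini-Hochberg adjustment at 0.05 and the same arm higher in all 8 libraries. List shares and abundant miRNAs were compared with exact sign-flip permutation tests over 256 sign patterns, and relations across libraries with exact permutations (40320). limma 3.58.1 and DESeq2 1.42.0 were alternatives. The arm test was checked on simulated data.

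The members and lists were chosen with earlier results of these data known. The miRNAs named were the 15 most abundant, the 3 most abundant of each list, the 6 highest and 6 lowest CVs of at least 100 CPM, the 6 most uneven precursors in each direction and the 6 nearest to equal (of at least 100 CPM over both arms), and the 5 leading seeds. Other miRNAs were named as tissue markers or after their values were seen, the latter being miR-128-3p in its comparison, miR-18a and miR-30a for their arm ratios, and the members of printed seed groups. Sequences and chromosomes are from RefSeq GRCr8, and the files name no build.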

Additional observations from a re-analysis of the deposited data

Results flagged for a closer look

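In 89 sets of 8 control values (library measures, list shares, named miRNAs and arm ratios), a library was noted when its gap to the next value exceeded Dixon's 95% critical share of the whole range (0.526 for 8 samples). Chance does this in about 1 of 20 independent sets. It occurred in 9 of the 89, of which 4 were in replicate 6 and 3 in replicate 1. The sets overlap, so the 89 are not independent and the 9 cannot be set against that rate. Of the 4 in replicate 6, 3 rest largely on the same red cell miRNA, through its level, its ratio and the share of its list. No explanation was tested for any of the 9.

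Replicate 6 had the lowest share of red cell precursor miRNAs, at 0.171% of its counts, where the other 7 libraries lay between 0.416% and 0.591%. Its miR-451-5p level was 1447 CPM, with 3663 to 4976 CPM in the others, and on the log2 scale miR-451-5p over miR-23a-3p was -1.23, with 0.01 to 0.58 in the others. The steadiest miRNA, miR-30e-5p, was highest there at 5378 CPM, with 4570 to 4947 CPM elsewhere.

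Replicate 1 had the highest miR-142-3p level, 4425 CPM against 1250 to 2086 CPM in the others, while miR-142-5p, the other arm of that white cell precursor, was at 2675 CPM there, inside the range of the other libraries. miR-144-5p was also highest in replicate 1, at 712 CPM against 165 to 386 CPM, and the log2 arm ratio of miR-152 was lowest there at -8.15 against -7.25 to -6.49, on 3 counts of the 5p arm.

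The islet miRNA miR-375-3p was highest in replicate 3, at 156 CPM against 36.9 to 89.8 CPM. The log2 arm ratio of miR-206 was lowest in replicate 5, at -16.00 against -14.96 to -14.22, on 2 counts of the 5p arm.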

How the results depend on the processing

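Taking miR-206-3p out of the total raised every list's share except that of muscle, which fell to 15.8%, below the widely made red cell list. The others became 16.6% (widely made red cell list), 15.8% (let-7), 12.2% (connective tissue), 10.5% (Dlk1-Dio3), 3.38% (endothelium), 1.96% (white cells), 1.53% (epithelia), 1.45% (neurons and glia), 1.26% (X-linked cluster), 0.739% (red cell precursors), 0.700% (liver) and 0.0776% (endocrine). The effective number of miRNAs became 44.8, and 6.38 and 65.0 miRNAs held 50% and 90% of the counts. With a mean of at least 50 counts on both arms the calls were 17 (5p) and 11 (3p) of 41 precursors, against 54 and 45 of 118. That limit leaves out precursors whose minor arm had few counts, among them the most uneven. Leaving out each replicate in turn, calls ran from 54 to 57 (5p) and from 45 to 46 (3p). The log2 ratio of white cells to epithelia ran from 0.31 to 0.43 and fell short of the threshold without each replicate but 7. That of connective tissue to the Dlk1-Dio3 locus ran from 0.17 to 0.27 and passed without replicate 1. The order turned for the widely made red cell list over let-7 (-0.016 to 0.14), neurons over the X-linked cluster (-0.073 to 0.19) and red cell precursors over liver (-0.088 to 0.38), none of which was called. In an alternative chosen after seeing the data, the median r ran from 0.22 to 0.58 for let-7 (lowest without replicate 8) and from 0.21 to 0.64 for liver (lowest without replicate 6) and from 0.25 to 0.46 for Dlk1-Dio3 (lowest without replicate 5). Without replicate 5 the CV of miR-431 was 4.58% and that of miR-378a-3p 4.18%. The cause of these shifts was not tested. Of the other values recomputed, 515 kept their direction and side of the threshold or moved by less than the spread. No paired analysis was possible because no sample groups are compared here, and tests of arms and lists already compare values within a library.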
